A study of Mus musculus with 10 samples.

Results

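MiR-223 was followed through 10 small RNA libraries of mouse splenic B-cells by its 2 mature products, mmu-miR-223-3p and mmu-miR-223-5p, which are 2 of the 1302 mature microRNA features in a table of 6968 small RNA features. They were taken by name, with no threshold on their values. The study compared CD43- splenic B-cells of wt mice, of 3'RR-deficient mice and of Eµ-deficient mice. The 3'RR and Eµ are enhancers of the immunoglobulin heavy chain (IgH) locus, and per the study's methods all mice shared an inbred background and were 8 to 12 weeks old, of both sexes. The Eµ-deficient line is described there as lacking EµMAR, that is Eµ with its flanking matrix attachment regions. Cells were non-stimulated (NS) or stimulated with lipopolysaccharide (LPS), a bacterial product that activates B-cells, at 5 µg per ml in the sample labels (the protocol text gives mg). The labels give 2 days of culture for NS cells as well, whereas the methods describe NS cells taken before stimulation, so the effect of LPS and that of culture cannot be told apart. There were 2 libraries each for wt NS, wt LPS, 3'RR-deficient NS and 3'RR-deficient LPS cells, and 1 library each for Eµ-deficient NS and LPS cells. Each library came from the pooled cells of 2 mice, and p-values therefore measure the spread between such pools.

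A microRNA is cut from a hairpin precursor into a duplex of a 5p and a 3p arm, one of which is usually loaded into Argonaute and guides the silencing of messenger RNAs through its seed, while the partner is mostly degraded. MiR-223 is the best known microRNA of the myeloid lineage. It is abundant in neutrophils, monocytes and platelets, is induced during granulocyte differentiation by C/EBP factors and restrains inflammatory genes such as Nlrp3. Lymphocytes hold much less of it than granulocytes, and among human B-cells it is known to be lower in germinal centre cells than in naive or memory cells. CD43, the marker used for depletion, is carried by T-cells, by many myeloid cells and by activated B-cells.

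The gene Mir223 lies on chromosome X of GRCm38 (96242817 to 96242926, plus strand), within an exon of the long non-coding RNA F630028O10Rik (chromosome X, 96239926 to 96243642). In the GENCODE M21 annotation this is exon 3 of one transcript of that RNA and exon 2 of the other. The nearest other mature microRNA of the table was 1968 kb away, so miR-223 stands alone among the microRNAs measured. The labels do not give the sex of the pooled mice. The mature sequences and the hairpin from RefSeq (GRCm38.p6) are shown because the report turns on how the 2 arms moved. Capitals mark the seed (bases 2 to 8) in the mature sequences, and the arms in the hairpin.
miR-223-5p: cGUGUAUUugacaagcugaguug
miR-223-3p: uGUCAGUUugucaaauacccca
Mir223 hairpin: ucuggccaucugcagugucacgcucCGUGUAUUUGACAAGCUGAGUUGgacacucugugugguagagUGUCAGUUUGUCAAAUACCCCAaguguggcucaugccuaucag

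The 5p arm covers bases 26 to 48 of the 110-base hairpin (chromosome X, 96242842 to 96242864) and the 3p arm bases 68 to 89 (96242884 to 96242905), and the positions in the deposited table were the same. The seeds differ, GUGUAUU in the 5p arm and GUCAGUU in the 3p arm. Of 1679 mature mouse microRNAs in RefSeq, 0 others share either seed. The GC content is 43.5% in the 5p and 40.9% in the 3p arm.

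The libraries held between 3482540.0 and 18144016 counts, of which 51.4% to 82.1% were in the microRNA class. Levels are given as CPM, microRNA counts scaled to a common library size, with TMM factors over the 10 libraries. As a description of the samples, 6 microRNAs known from lymphocytes were summed (products of miR-150, miR-142a, miR-181a and miR-155, of which miR-142a is shared by all blood cells). Their summed level was 88118 to 256119 CPM. No level was set that would have counted against the sample label, so this is no test of it. The NS replicates 2 of wt and 3'RR-deficient mice stood apart in several ways. They held 3482540 and 3756662 counts, against 15073103 and 11915044 in the NS replicates 1. Their microRNA share was 63.9% and 67.5% against 82.1% and 81.0%, and their TMM factors were 1.35 and 1.33 against 0.72 and 0.78. MiR-142a differed too: miR-142a-5p was at 177522 and 84931 CPM in the first NS replicates of wt and 3'RR-deficient mice but at 7357 and 6191 CPM in the second. There miR-142a-3p was at 265 and 234 CPM, below miR-223-3p, while miR-150-5p was at 56331 and 51535 CPM. NS replicates lay farther apart than LPS replicates. Over 720 microRNA features the log2 difference between replicates had an SD of 2.01 in wt NS and 1.81 in 3'RR-deficient NS cells, against 1.21 in both LPS groups.

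Mmu-miR-223-3p, the arm known as the guide strand, was well detected in NS cells, and its mean level without LPS was 10.9-fold that with LPS in wt, 12.3-fold in 3'RR-deficient and 9.96-fold in Eµ-deficient cells. In NS cells its level was 1923 and 463 CPM in the wt libraries, from 17128 and 1389 counts. It was 1436 and 1007 CPM in the 3'RR-deficient libraries and 4939 CPM, from 47687 counts, in the Eµ-deficient library. With LPS it was 143 and 76.2 CPM in wt, 97.5 and 101 CPM in 3'RR-deficient and 496 CPM in Eµ-deficient cells. All 4 wt and 3'RR-deficient LPS libraries lay below all 4 NS libraries of these genotypes, and the lowest NS library was 3.23-fold above the highest LPS library. Such a separation downwards was seen for 12.9% of the 720 features tested. The Eµ-deficient LPS library lay close to the lowest NS library, wt NS replicate 2, and which was higher depended on the scaling. With TMM it was above (496 against 463 CPM), so that NS and LPS libraries overlapped once that genotype was included. It was below with DESeq2 size factors (485 against 542), with total microRNA counts (607 against 624) and with total counts of all features (312 against 399). The separation of the other 4 NS from the other 4 LPS libraries held under each of these scalings. As a share of microRNA counts, miR-223-3p ran from 0.0624% (Wilson 95% confidence interval 0.0592 to 0.0658) in wt NS replicate 2 to 0.586% (0.581 to 0.592) in Eµ-deficient NS cells. With LPS it ran from 0.00606% (0.00555 to 0.00661) in wt replicate 2 to 0.0607% (0.0592 to 0.0623) in Eµ-deficient cells. These intervals cover counting error only.

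Ranked by count among the mature microRNAs, miR-223-3p stood between place 60 and place 82 in the 4 NS libraries of wt and 3'RR-deficient mice and at place 32 in Eµ-deficient NS cells. With LPS it stood between places 134 and 175 in wt and 3'RR-deficient cells and at place 92 in Eµ-deficient cells. Between 605 and 864 mature microRNAs were detected per library.

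MiR-223-5p, the partner strand, was far lower in every library, and it too was highest in the Eµ-deficient library of each condition. The same held for 11.4% of 988 features. In NS cells it was at 66.8 and 16.3 CPM in wt, at 60.6 and 34.3 CPM in 3'RR-deficient and at 92.1 CPM in Eµ-deficient cells. With LPS it was at 3.33 and 6.17 CPM in wt, from 16 and 41 counts, at 11.7 and 10.4 CPM in 3'RR-deficient and at 16.5 CPM in Eµ-deficient cells. Again the 4 LPS libraries of wt and 3'RR-deficient mice lay below their 4 NS libraries, here by 1.39-fold between the nearest of them. Eµ-deficient LPS cells were level with wt NS replicate 2 with TMM and below it with the other 3 scalings. The order of the wt and 3'RR-deficient LPS libraries was not that of the 3p arm, since wt LPS replicate 1 was the highest of these 4 for the 3p and the lowest for the 5p arm. Across the 10 libraries the log2 levels of both arms ran together (Pearson r = 0.92, Spearman rho = 0.92), a description over libraries that share the LPS contrast and the scaling.

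**Figure D1:**
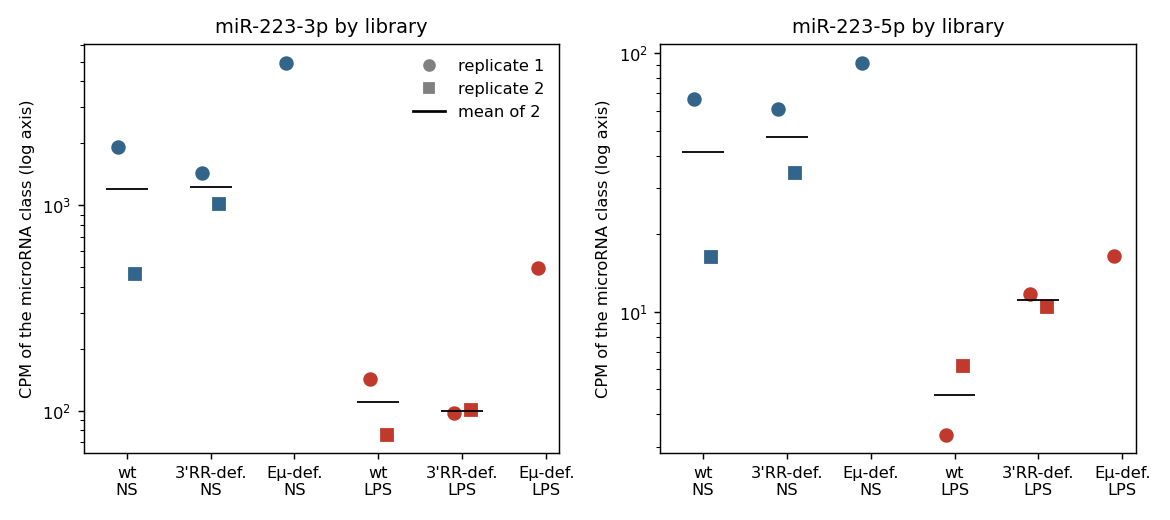
Level of miR-223-3p (left) and miR-223-5p (right) in each library, in CPM of the microRNA class on a log axis; circles are replicate 1, squares replicate 2, lines the mean of 2 libraries, blue NS and red LPS. In wt and 3'RR-deficient cells the 3p arm lies between 463 and 1923 CPM without LPS and between 76.2 and 143 CPM with LPS, and the Eµ-deficient library is the highest of each condition.

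By group, miR-223-3p was highest in Eµ-deficient NS cells, followed by 3'RR-deficient NS (1222 CPM ± 303, SD, n = 2), wt NS (1193 ± 1033, SD, n = 2), Eµ-deficient LPS, wt LPS (110 ± 47.3, SD, n = 2) and 3'RR-deficient LPS cells (99.3 ± 2.54, SD, n = 2). The neighbours 3'RR-deficient NS and wt NS did not differ beyond their spread, and neither did wt LPS and 3'RR-deficient LPS. With TMM, Eµ-deficient LPS cells lay within the range of the wt NS libraries, and with the other 3 scalings below both of them. The wt NS libraries were 4.16-fold apart, the 3'RR-deficient NS libraries 1.43-fold and the 3'RR-deficient LPS libraries 1.04-fold.

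The first comparison asked how both arms respond to LPS. Over wt and 3'RR-deficient cells together, miR-223-3p had a log2 fold change of -3.49 (SE 0.53, 95% interval -4.67 to -2.31, adjusted p 0.00261 with edgeR's quasi-likelihood test). The value for miR-223-5p was -2.59 (SE 0.56, 95% interval -3.82 to -1.36, adjusted p 0.00967 with the same test). Both of the 2 arms thus passed the threshold of an adjusted p under 0.05 as decreases, which 8.61% of the 720 features tested did. In size, the fall of the 3p arm ranked 30th and that of the 5p arm 51st among the 720, whose median log2 fold change was 0.07. With TMM over all small RNA classes, where the median of the features was -0.54, the values were -4.18 and -3.36. Without wt LPS replicate 1 the 5p arm missed the threshold (-2.40, adjusted p 0.0513 with edgeR). The 3p arm passed in each of the 8 fits that left out 1 library. Without both NS replicates 2, a fit added after the data were seen, the values were -4.06 (adjusted p 1.19e-05 with edgeR) and -3.22 (adjusted p 0.000283 with edgeR).

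Within one genotype the same decreases were measured with fewer libraries. In wt cells the log2 fold change was -3.31 for miR-223-3p (SE 0.82, adjusted p 0.0831 with edgeR) and -3.05 for miR-223-5p (SE 0.85, adjusted p 0.0906 with edgeR). In 3'RR-deficient cells it was -3.67 (SE 0.83, adjusted p 0.0769 with edgeR) and -2.15 (SE 0.82, adjusted p 0.194 with edgeR). None of these passed, in comparisons where 0.694% and 0.972% of the 720 features did, all of them as increases (0% as decreases). At an unadjusted p under 0.05 there were 65 decreases in wt and 54 in 3'RR-deficient cells. The DESeq2 Wald test called the 3p arm in wt (-3.43, adjusted p 0.000258) and likewise in cells lacking the 3'RR (-3.64, adjusted p 8.71e-05). It called the 5p arm in wt (-3.15, adjusted p 0.00184) but not in 3'RR-deficient cells (adjusted p 0.0548). As decreases, DESeq2 called 7.07% of the features it tested in wt and 4.57% in 3'RR-deficient cells. The edgeR value of the 3p arm in wt cells was -2.39 without wt NS replicate 1 and -4.05 without wt NS replicate 2, and that of the 5p arm was -2.12 and -3.75. In Eµ-deficient cells, with 1 library per condition and no test, the log2 ratio of LPS to NS was -3.32 for the 3p and -2.46 for the 5p arm. The difference between the LPS responses of 3'RR-deficient and wt cells was -0.37 for the 3p arm (95% interval -2.72 to 1.99) and 0.90 for the 5p arm (95% interval -1.57 to 3.38). Neither passed, with adjusted p-values of 1.00 from edgeR, and 0% of all features did (edgeR, with 5 at an unadjusted p under 0.05, and 0 with DESeq2). The intervals reach several-fold differences either way. The direction turned without wt NS replicate 2 (0.35) or wt LPS replicate 1 (0.29) for the 3p arm and without wt NS replicate 1 (-0.07) for the 5p arm.

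**Figure D2:**
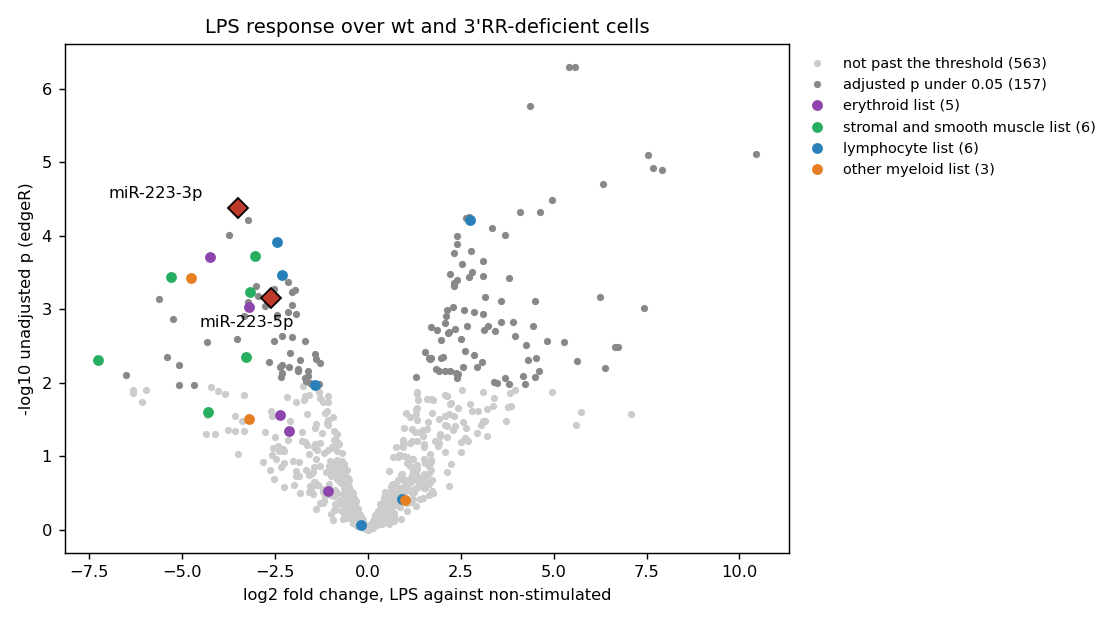
Log2 fold change with LPS over wt and 3'RR-deficient cells against −log10 of the unadjusted p of edgeR for 720 microRNA features; diamonds are the arms of miR-223 and coloured points the members of the marker lists. Both arms lie among the decreases, at -3.49 and -2.59, and every point of the erythroid and stromal lists lies on the same side.

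Some microRNAs of other cell types fell as well, most of them of the stromal list. In a bulk sample fewer cells of a type and less RNA per cell cannot be told apart. The myeloid list held 3 further members, miR-511-3p and miR-511-5p, which are made from an intron of the macrophage mannose receptor gene Mrc1, and miR-147-3p, which macrophages induce upon Toll-like receptor stimulation. MiR-511-3p had 29 to 55 counts in the NS and 0 to 6 counts in the LPS libraries of wt and 3'RR-deficient mice, and fell (log2 fold change -4.74, SE 0.94, adjusted p 0.00718 with edgeR). MiR-511-5p (-3.21, adjusted p 0.0985 with edgeR) and miR-147-3p (1.00, adjusted p 0.549 with edgeR) did not pass. The summed level of these 3 was 8.53 to 18.9 CPM without and 1.33 to 5.00 CPM with LPS, far below miR-223-3p. MiR-511-5p was at 0 in 1 of these NS and 2 of these LPS libraries, and miR-147-3p in 1 NS library.

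Of 5 erythroid microRNAs (products of miR-451a, miR-144 and miR-486a, which mark red blood cells and their precursors), 2 fell and 0 rose, and their median log2 fold change was -2.37. Their summed level was 2569 to 6724 CPM without and 171 to 1154 CPM with LPS in wt and 3'RR-deficient cells. Those that fell were miR-486a-5p (-4.25, adjusted p 0.00497 with edgeR) and miR-486a-3p (-3.20, adjusted p 0.0111 with edgeR), whose reads cannot be told from those of miR-486b. MiR-451a and both arms of miR-144 overlapped between the NS and LPS libraries of wt and 3'RR-deficient mice. There miR-451a was at 205 to 3719 CPM without and 83.4 to 564 CPM with LPS. In the NS replicates 2 of wt and 3'RR-deficient mice it was at 205 and 367 CPM, while miR-486a-5p was at 2292 and 6202 CPM. No member was at 0 in any library. Of 6 stromal and smooth muscle microRNAs (products of miR-143, miR-145a, miR-199a and miR-214), 5 fell and 0 rose, with a median of -3.79. Setting the 2 that had no more than 3 counts in each of the 4 LPS libraries of wt and 3'RR-deficient mice to their bound gave a median of -3.10. Their summed level was 172 to 980 CPM without and 18.8 to 68.3 CPM with LPS, where up to 3 of the 6 were at 0 in a library. The platelet and endothelial microRNA miR-126a had 0 of 2 arms past the threshold and a median of -0.05. Its summed level was 25.3 to 141 CPM without and 40.9 to 78.6 CPM with LPS. Of the 3 muscle and liver microRNAs only miR-122-5p could be tested, with 0 calls (-2.57, adjusted p 0.216 with edgeR) and a summed level of the list of at most 6.81 CPM. Of 6 lymphocyte products 1 rose and 3 fell, with a median of -0.79. Against this, 21.8% of all 720 features passed, 95 of them higher and 62 lower, with a median of 0.07. The part of red cell, stromal or myeloid RNA in the fall of miR-223 was not tested.

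**Figure D3:**
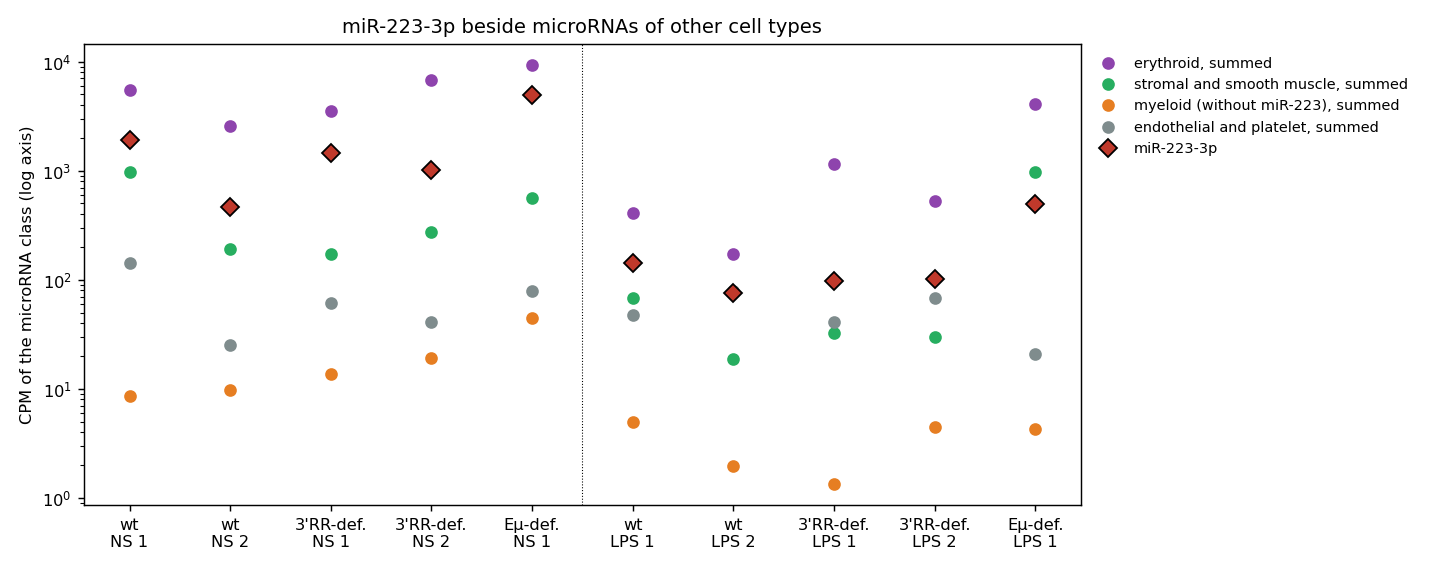
Level of miR-223-3p (diamonds) in each library beside the summed level of 4 lists of microRNAs of other cell types (circles), in CPM on a log axis, with NS libraries left and LPS libraries right of the dotted line. In the 4 LPS libraries of wt and 3'RR-deficient mice, miR-223-3p and the erythroid, stromal and other myeloid sums are all lower than in the NS libraries of these genotypes, while in Eµ-deficient LPS cells the stromal sum is 976 CPM. Within the erythroid list, miR-451a and the arms of miR-144 overlapped between the NS and LPS libraries of wt and 3'RR-deficient mice.

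The 3'RR-deficient and wt libraries were then set against each other for both arms. In NS cells the log2 difference between 3'RR-deficient and wt cells was 0.20 for the 3p arm (SE 0.75, 95% interval -1.46 to 1.87) and 0.36 for the 5p arm (SE 0.78, 95% interval -1.37 to 2.09). With LPS it was -0.16 for the 3p arm (SE 0.75, 95% interval -1.83 to 1.51) and 1.26 for the 5p arm (SE 0.81, 95% interval -0.53 to 3.06). Over both conditions it was 0.02 for the 3p arm (SE 0.49, 95% interval -1.05 to 1.09) and 0.80 for the 5p arm (SE 0.53, 95% interval -0.37 to 1.97). None of these passed, with adjusted p-values of edgeR between 0.997 and 1.00. Over all features 0% passed in NS cells, 0% with LPS and 0.139% over both conditions with edgeR. At an unadjusted p under 0.05 there were 9 features in NS cells and 15 with LPS, and DESeq2 called 1 and 2. The interval over both conditions leaves room for a difference of about 2-fold either way in the 3p arm.

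For the 3p arm, same-numbered libraries gave differences of opposite sign. Between 3'RR-deficient and wt NS cells the log2 ratio of the 3p arm was -0.42 for the first and 1.12 for the second replicates. With LPS it was -0.55 and 0.41. The value without wt NS replicate 2 was -0.46, so the direction in NS cells rested on that library. For the 5p arm the ratios were -0.14 and 1.06 in NS and 1.73 and 0.73 in LPS cells, and it was higher in both 3'RR-deficient LPS libraries (11.7 and 10.4 CPM) than in both wt LPS libraries (3.33 and 6.17 CPM). Such a separation upwards was seen for 15.4% of the 720 features.

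For Eµ-deficient cells, the 2 libraries were tested against wt across both conditions. The Eµ-deficient library was the highest of its condition for both arms, in NS and in LPS cells, as it was for 11.4% of the 988 features. These libraries also had the lowest microRNA share of their condition, 60.2% against 63.9% to 82.1% in NS and 51.4% against 68.5% to 75.9% in LPS cells, whose part in the result was not tested. For miR-223-3p it was 2.57-fold above the highest and 10.7-fold above the lowest other NS library, and 3.46-fold above the highest and 6.51-fold above the lowest other LPS library. The log2 difference from wt was 2.12 for the 3p arm (SE 0.54, 95% interval 0.96 to 3.27, adjusted p 0.0635 with edgeR). It was 1.43 for the 5p arm (SE 0.62, 95% interval 0.11 to 2.75, adjusted p 0.375 with edgeR). Neither passed, and 1.62% of 988 features did, 14 higher and 2 lower in Eµ-deficient cells. The median difference over all features was -0.17. With DESeq2 the 3p arm passed (2.24, adjusted p 0.00118), as did 7.34% of the features it tested, and with DESeq2 size factors in edgeR it passed as well (2.24, adjusted p 0.0270). In all, 12 of 23 alternatives called the 3p arm, and its difference lay between 1.83 and 2.77 over the 23. Without wt NS replicate 1 the differences of the 3p and 5p arms were 2.77 and 2.32. Without both NS replicates 2, a fit added after the data were seen, they were 2.15 and 1.54. The number of features called varied widely between the alternatives, so a pass in some of them is no result about miR-223 alone.

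Of the lists of other cell types, the stromal list had 1 of 6 members called higher in Eµ-deficient cells, miR-199a-3p (3.70, adjusted p 0.0318 with edgeR), and a median difference of 3.60. Its summed level in Eµ-deficient NS cells was 556 CPM, within the 172 to 980 CPM of the other NS libraries. In Eµ-deficient LPS cells it was 976 CPM, against at most 68.3 CPM in the other LPS libraries. The erythroid list had 0 of 5 members past the threshold and a median difference of 2.51, with sums of 9304 and 4084 CPM in Eµ-deficient NS and LPS cells. The 3 further myeloid microRNAs had 0 calls and a median difference of 1.67. MiR-511-3p had 318 counts (32.9 CPM) in Eµ-deficient NS cells, against at most 9.77 CPM in the other NS libraries. The log2 differences of miR-511-5p and miR-147-3p from wt were 1.91 and -0.16. MiR-147-3p was at 0.41 CPM (4 counts) in Eµ-deficient NS cells, against 0 to 3.55 CPM in the other NS libraries. The lymphocyte list had 0 of 6 calls and a median of -0.52. In Eµ-deficient cells miR-223-3p was thus at 4939 CPM without and 496 CPM with LPS, while the stromal sum was 556 and 976 CPM. The sum of the 3 further myeloid microRNAs was 44.9 CPM without and 4.29 CPM with LPS in the same libraries. In the other genotypes it was 8.53 to 18.9 CPM without and 1.33 to 5.00 CPM with LPS. In the Eµ-deficient NS and LPS libraries miR-511-3p had 318 and 14 counts, whereas miR-147-3p had 4 and 35. Whether a different cell makeup of the Eµ-deficient pools bears on the level of miR-223 was not tested, and with 1 pool per condition the genotype and the pool cannot be told apart.

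**Figure D4:**
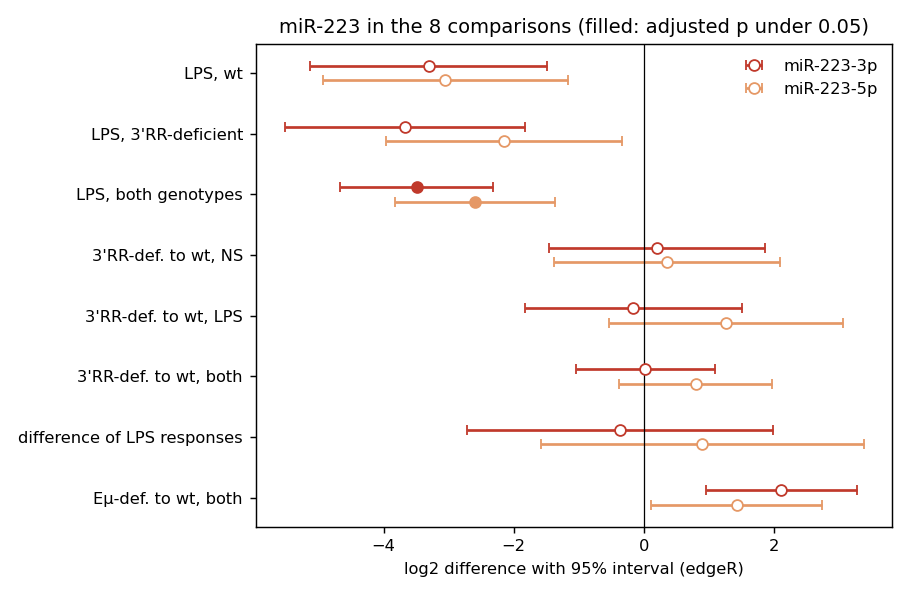
Log2 differences of miR-223-3p (dark) and miR-223-5p (light) in the 8 comparisons with their 95% intervals from edgeR; filled points have an adjusted p under 0.05. Filled points occur for LPS over both genotypes, at -3.49 and -2.59, and the intervals of the comparisons between 3'RR-deficient and wt cells span 0.

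The ratio of the arms does not depend on how libraries are scaled to each other. In NS cells there were 28.8 and 28.3 counts of miR-223-3p per count of miR-223-5p in the wt libraries. The 3'RR-deficient libraries gave 23.7 and 29.3. Eµ-deficient NS cells had the highest ratio, 53.6. With LPS it was 8.32 and 9.69 in 3'RR-deficient cells, 12.3 in wt replicate 2 and 42.9 in wt replicate 1, and 30.1 in Eµ-deficient cells. Thus 3 of the 5 LPS libraries had a lower ratio than every NS library, and wt LPS replicate 1 had a higher ratio than both wt NS libraries.

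Expressed as a share, the 5p arm made up 3.30% to 4.05% of the mature miR-223 counts in the NS libraries of wt and 3'RR-deficient mice. In Eµ-deficient NS cells it made up 1.83% (Wilson 95% confidence interval 1.71 to 1.95). With LPS the share was 10.7% (8.30 to 13.8) and 9.36% (7.55 to 11.5) in 3'RR-deficient cells and 7.50% (5.57 to 10.01) in wt replicate 2. It was 2.28% (1.41 to 3.66) in wt replicate 1 and 3.21% (2.79 to 3.70) in Eµ-deficient cells. The intervals of the wt LPS replicates do not overlap, but replicate 1 rests on 16 counts of the 5p arm. The intervals take each read as a separate molecule, and PCR copies could not be removed, so the true counting error may be wider.

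**Figure D5:**
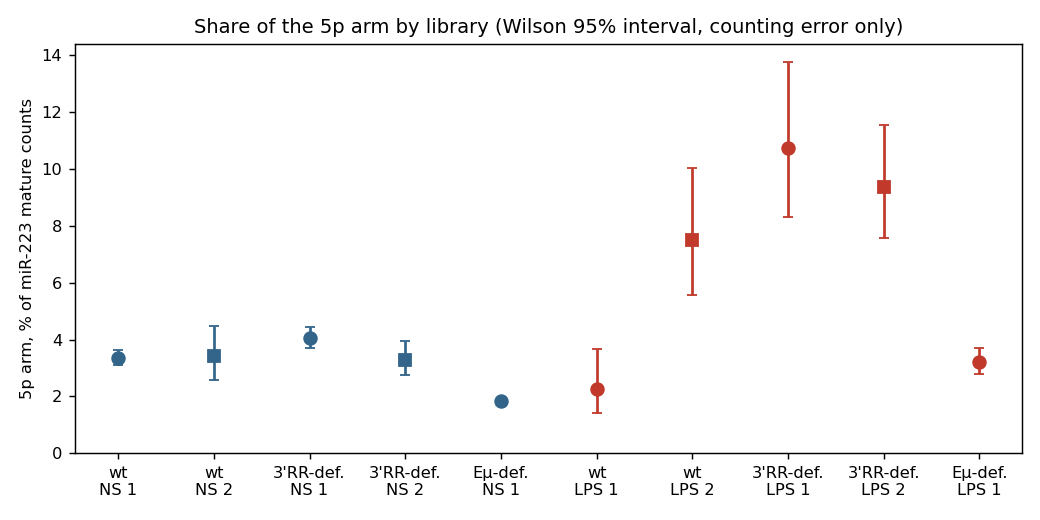
Share of the 5p arm in the mature miR-223 counts of each library, in percent, with Wilson 95% confidence intervals that cover counting error only; circles are replicate 1, squares replicate 2, blue NS and red LPS. NS libraries lie between 1.83% and 4.05%, and LPS libraries spread from 2.28% to 10.7%.

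The mean log2 ratio of 3p to 5p was 4.97 ± 0.45 (SD, n = 5) in NS and 4.06 ± 1.05 (SD, n = 5) in LPS libraries. The difference of -0.91, with LPS permuted within genotype, gave an exact two-sided permutation p of 0.0833, where the smallest p of the design was 0.0278. Without wt LPS replicate 1, the LPS library with the highest ratio, the difference was -1.28. Without any other single library it lay between -1.01 and -0.73. In the 8 wt and 3'RR-deficient libraries the exact permutation p was 0.167, and with LPS permuted across all libraries it was 0.127. Between 3'RR-deficient and wt cells the log2 ratio differed by -0.74 (exact two-sided permutation p 0.167), in a design whose smallest p is 0.0556. It was -0.25 without wt LPS replicate 1. Adjusted over the 2 main permutation tests, of LPS and of the 3'RR, both p-values were 0.167.

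The hairpin itself was counted as a separate feature (ENSMUST00000102112). The rule that split reads between the hairpin and the mature arms is not given in the sources used here. It had 92 and 14 counts in wt NS, 118 and 2 in 3'RR-deficient NS and 855 in Eµ-deficient NS cells. With LPS it had 4 and 16 counts in wt, 7 and 20 in 3'RR-deficient and 88 in Eµ-deficient cells. These counts amounted to between 0.0588% and 3.16% of those of the 3p arm. The hairpin did not pass for LPS over wt and 3'RR-deficient cells (log2 fold change -2.10, SE 0.86, adjusted p 0.103 with edgeR) nor for Eµ-deficient against wt cells (3.00, SE 0.89, adjusted p 0.104 with edgeR). It was highest in the Eµ-deficient library of each condition, again as 11.4% of features were.

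The microRNAs most like miR-223-3p across the 10 libraries were sought among 155 other mature microRNAs with a mean of at least 100 CPM, by Pearson's r of log2 CPM. They were miR-200b-3p (r = 0.90), miR-151-5p (r = 0.86), miR-664-3p (r = 0.84), miR-143-3p (r = 0.84) and miR-350-3p (r = 0.81). These values describe 10 points that share the LPS contrast and carry no p. MiR-200b-3p, a microRNA known from epithelial cells, ranged from 202 to 511 CPM without and from 88.9 to 150 CPM with LPS. Its log2 fold change over wt and 3'RR-deficient cells was -1.35 (adjusted p 0.0517 with edgeR). MiR-664-3p (-1.95, adjusted p 0.00858 with edgeR) and miR-143-3p (-3.18, adjusted p 0.00880 with edgeR) fell, and the values of miR-151-5p (-0.92, adjusted p 0.0939 with edgeR) and miR-350-3p (-1.63, adjusted p 0.0901 with edgeR) did not pass. Of the 5, miR-143-3p had the largest difference between Eµ-deficient and wt cells (2.82, adjusted p 0.199 with edgeR), and the other 4 lay between 0.19 and 0.57.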

How the data were processed

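Total RNA was made into libraries with NextFlex small RNA reagents (17 PCR cycles, size selection of the amplified product, 75 nt reads). The authors deposited raw read counts per feature and library, without normalization. The submitters' processing notes name cutadapt 1.2.1, Bowtie2 and mm10. The counting program and the handling of reads with several matches are not given in the sources used here. Mature products and hairpins are separate features, so a misassigned read would shift the arm ratio. The table has no molecular identifiers, so PCR copies count as reads, and intervals and floors cover counting error only.

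The 2015 features of the microRNA class were tested with edgeR 4.0.16 in R 4.3.3 (TMM, filterByExpr by group, quasi-likelihood F-test, two-sided, Benjamini-Hochberg over all features tested, threshold 0.05). SEs were derived from the fold change and its F value. Within-genotype and within-condition comparisons used 1 mean per group in 8 libraries, comparisons over both used additive terms, and the Eµ comparison used all 10 libraries. The biological coefficient of variation was 72.4%. Arm ratios were tested with exact permutation tests. Likeness used a prior count of 2. Shares have Wilson 95% intervals. A floor of 3 counts gave bounds. Alternatives included DESeq2 1.42.0, and calculations were tested on simulated data. Depth ranged from 3482540.0 to 18144016 counts, and arms with few counts are the least precise. Named microRNAs were both arms, the hairpin, the 5 most alike and the marker lists. Members and lists were chosen with earlier results of these data known. The paper names no test for these counts.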

Additional observations from a re-analysis of the deposited data

How the results depend on the processing

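Leaving aside the direction of 3'RR-deficient against wt cells and of the difference of the LPS responses, the log2 differences of both arms and of their ratio kept their direction in their alternatives. Of 36 group levels in CPM under other scalings, 16 moved by more than the spread between replicates or, for 1 library, the counting interval, and the order of Eµ-deficient LPS cells and wt NS replicate 2 turned. The fall of miR-223-3p with LPS over wt and 3'RR-deficient cells passed in all 21 alternatives (-4.18 to -3.23, adjusted p up to 0.0159), and that of miR-223-5p in 20 of 21 (-2.40 without wt LPS replicate 1, and -2.92 to -2.16 over the libraries left out). The limits are the small groups, the spread between NS replicates and the few counts of the 5p arm with LPS. The cause of the changes below was not tested.

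In wt cells the LPS response of miR-223-3p passed with no filter (-3.45), the DESeq2 Wald test (-3.43), the replicate block (-3.20), the replicate block within culture condition (-3.16), the GC trend removed (-3.59), and the GC trend removed with that block (-3.75), and it ran from -4.05 to -2.39 when 1 library was left out. That of miR-223-5p passed with no filter (-3.16), DESeq2 (-3.15), the block within condition (-2.80), the GC trend removed (-3.27) and both (-3.25), and ran from -3.75 to -2.12. In 3'RR-deficient cells miR-223-3p passed with total count scaling (-3.83), no filter (-3.66), a 10 CPM filter (-3.63), DESeq2 (-3.64), only the groups compared (-3.82), the replicate block (-3.63), the block within condition (-3.67), the GC trend removed (-4.32) and both (-4.27), and ran from -4.05 to -3.59. MiR-223-5p passed with the block within condition (-2.09), the GC trend removed (-2.47) and both (-2.48), and ran from -2.64 to -1.87. Leaving out 1 NS library also brought calls: in wt, the 3p arm without either 3'RR-deficient NS replicate and the 5p arm without the first, and in 3'RR-deficient cells, the 3p arm without either wt NS replicate or without 3'RR-deficient NS replicate 1.

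The labels do not say that a replicate number marks shared animals or a shared day. Between wt and 3'RR-deficient cells the difference of replicate 1 and 2 had r = 0.66 over 720 features in NS and 0.11 in LPS cells, and between NS and LPS cells r was -0.06 in wt and -0.22 in 3'RR-deficient cells. In NS cells the replicates of both genotypes thus differed in a like way, as a hint from the data, and across conditions they did not. The replicate block gave 27 calls instead of 5 for LPS in wt and 11 instead of 7 in 3'RR-deficient cells, and the block within culture condition 182 and 183. Crossing the numbers in 3'RR-deficient cells, added after the data were seen, gave 83, with miR-223-3p called (-3.64) and miR-223-5p not.

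For 3'RR-deficient against wt NS cells the values ran from -0.46 to 1.22 (3p) and from -0.28 to 1.35 (5p, -0.01 without 3'RR-deficient NS replicate 1) when 1 library was left out. With LPS the 3p value ran from -0.56 to 0.50, and it was 0.00 without 3'RR-deficient LPS replicate 2. Over both conditions the 3p value was -0.05 with DESeq2 size factors, with the DESeq2 test and in the fit of all 10 libraries, -0.04 with total counts, -0.02 over all classes and -0.06 with mature microRNAs alone, and ran from -0.26 to 0.38 (also -0.06 and -0.13) when 1 library was left out. The difference of the LPS responses ran from -1.35 to 0.35 (3p, also 0.29) and from -0.07 to 1.56 (5p).

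In Eµ-deficient against wt cells miR-223-3p passed with DESeq2 size factors and the DESeq2 test (both 2.24), total counts (2.48), no filter (2.27), a 10 CPM filter (2.38), mature microRNAs alone (2.31), only wt and Eµ-deficient libraries (2.33), the block within condition (1.86), the GC trend removed (2.07) and both (1.98), and ran from 1.83 to 2.77. MiR-223-5p passed with the GC trend removed and the block (1.43). Without both NS replicates 2, added after the data were seen, both passed (2.15 and 1.54). Leaving out 1 library, the 5p value ran from 1.17 to 2.32. The arm ratio with LPS ran from -1.28 to -0.73, and between 3'RR-deficient and wt cells from -0.97 to -0.25. Numbers of features called ran from 0 to 182 for LPS in wt (5 as reported), 0 to 183 in 3'RR-deficient cells (7), 71 to 336 over both (157), and 1 to 156 for Eµ-deficient cells (16).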
